A study of Mus musculus with 4 samples.

Results

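Immediate early genes were described here as 10 genes, Fos, Fosb, Jun, Junb, Jund, Egr1, Ier2, Atf3, Dusp1 and Zfp36. They were taken as every gene in the deposited matrices whose symbol is one of these names, which gave 10 of 32285 gene features. The cells were mouse bone marrow cells that carried CD45.2 and the stem and progenitor receptor Kit, taken 10 weeks post-transplantation. Single-cell transcriptomes and antibody tags were read together (CITE-seq), with 1 library in each of 4 groups: the control and, each labelled as deleted, Mll3, Mll4 and both (Mll3/4). These proteins are histone H3 lysine methyltransferases encoded by Kmt2c and Kmt2d. The labels name no strain, sex, age, Cre driver or deleted exons, and do not say whether animals were pooled. With 1 library in each group no test between groups could be made, so every comparison is between 2 libraries, and each interval is a 95% interval that covers counting error only.

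Immediate early genes are switched on within minutes of a growth factor, cytokine or stress signal, without new protein synthesis. Mitogen-activated protein (MAP) kinases act on transcription factors already bound at their promoters, among them serum response factor and CREB, and the short-lived mRNAs are then removed quickly. Fos and Jun proteins pair to form the AP-1 transcription factor, Egr1 is a zinc-finger transcription factor, and Dusp1 and Zfp36 belong to the feedback that ends the response. Handling and dissociation of cells can raise these mRNAs too.

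Promoter sequence was available for 8 of the 10 members (RefSeq start sites, build GRCm38.p6, without Egr1 and Ier2). Fos, Jun and Dusp1 are shown because Dusp1 took the opposite direction to Fos and Jun in the B-cell results of the Mll3/4 library. Each sequence runs 5′ to 3′ on the gene's strand up to the start site, the Dusp1 one stopping where a GENCODE exon begins, and capitals mark TGACG or its complement CGTCA, the core of the cAMP response element bound by CREB and related factors.
The Fos gene spans 85473890 to 85477273 on chromosome 12, Jun 95049034 to 95052222 on chromosome 4 and Dusp1 26505590 to 26562128 on chromosome 17 (GENCODE M21).
Fos promoter: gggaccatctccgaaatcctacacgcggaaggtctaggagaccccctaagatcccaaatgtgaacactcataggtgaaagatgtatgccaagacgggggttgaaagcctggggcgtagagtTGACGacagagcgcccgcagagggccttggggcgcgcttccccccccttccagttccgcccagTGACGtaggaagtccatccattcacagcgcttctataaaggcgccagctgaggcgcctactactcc
Jun promoter: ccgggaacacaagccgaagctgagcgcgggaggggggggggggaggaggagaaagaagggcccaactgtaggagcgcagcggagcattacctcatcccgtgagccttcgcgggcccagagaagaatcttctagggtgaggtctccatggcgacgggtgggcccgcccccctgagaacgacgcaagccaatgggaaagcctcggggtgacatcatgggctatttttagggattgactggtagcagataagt
Dusp1 promoter: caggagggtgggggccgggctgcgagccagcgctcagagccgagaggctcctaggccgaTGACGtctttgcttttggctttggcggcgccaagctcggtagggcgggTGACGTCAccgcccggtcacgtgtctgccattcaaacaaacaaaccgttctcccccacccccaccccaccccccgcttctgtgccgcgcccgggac
These windows lie at chr12:85473640-85473889 (plus strand), chr4:95052223-95052472 (minus strand) and chr17:26508520-26508722 (minus strand). Fos held TGACG at 129 and 66 bases before its start, and Dusp1 held it at 191 and 143 bases, the nearer one within the full palindrome TGACGTCA, which overlaps it. The Jun window held neither. In the 250 bases before the start, TGACG or CGTCA occurred in 5 of the 8 members (Fos, Fosb, Junb, Atf3 and Dusp1), against 17.8% of 32851 RefSeq windows of the same length. TGACGTCA occurred in Dusp1 alone among the members and in 1.55% of windows. The AP-1 site TGACTCA or TGAGTCA occurred in none of the 8 and in 4.46% of windows. A CArG box, the motif of serum response factor, occurred in Zfp36 among the members and in 1.47% of windows. A match is a description of letters and not evidence of binding.

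After filtering, the libraries held 7146 control, 5860 Mll3-labelled, 5350 Mll4-labelled and 6917 Mll3/4-labelled cells. Median depth was 15754, 16963.5, 5142 and 9965 unique molecular identifiers (UMIs) per cell in the same order, and pairs of libraries shared between 9 and 24 cell barcodes before filtering. Levels are given as CPM, the counts of a gene per 1000000 gene UMIs of the same cells. Over all cells, Kmt2c was lower in the Mll3-labelled library (27.2 CPM) and the Mll3/4-labelled library (34.8 CPM) than in control (47.9 CPM) or the Mll4-labelled library (59.2 CPM). Kmt2d did not separate the libraries by label, at 25.8, 21.6, 24.99 and 24.7 CPM, so the Mll4 deletion was not checked by it: 3′ reads can persist when exons further upstream are removed. In the B-cell progenitor-like cells described below, Kmt2c stood at 45.6, 30.4, 36.0 and 34.6 CPM in the same order of libraries. Kmt2d stood there at 40.4, 26.5, 16.6 and 24.7 CPM, below control in every other library, the Mll3-labelled one included. The Mll4-labelled values there rest on 13 and 6 counts. Every library carried 2 hashtag antibody features whose meaning the labels do not give. Xist stood near 1000 CPM in the cells of either hashtag in the control library (1022 and 956 CPM) and under 1 CPM in the Mll4-labelled library (0.466 and 0.671 CPM), so those libraries also differed in this transcript of female cells. Xist of the Mll3- and Mll3/4-labelled libraries is not reported here.

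Cells were clustered without the members and named from marker genes, giving 8 classes that held at least 50 cells in both control and at least 1 other library. These are stem and multipotent progenitor-like (HSC/MPP-like), granulocyte progenitor-like, neutrophil-like, monocyte-progenitor-like, erythroid progenitor-like, megakaryocyte-like, basophil and mast-like and B-cell progenitor-like cells. The Mll3/4-labelled library held 6831 B-cell progenitor-like cells and fewer than 50 cells of each other class, so it enters the B-cell comparison only. Different clusters held a class in different libraries. Control neutrophil-like cells lay in clusters 10, 15 and 16 and the Mll4-labelled ones mainly in clusters 11 and 15. Control B-cell progenitor-like cells lay in clusters 0 and 17 and the Mll3/4-labelled ones in clusters 21 to 25, which held almost no other cells and were led by Gria2 and Prlr.

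In the control library each member had its own distribution over the classes. Fos, the AP-1 subunit best known as an immediate early gene, was highest in basophil and mast-like cells (56.6 CPM) and lowest in erythroid progenitor-like cells (4.00 CPM). Jun, its main partner, stood at 282.1 CPM in B-cell progenitor-like and 267.3 CPM in basophil and mast-like cells and at 31.3 CPM in neutrophil-like cells. Jund, an AP-1 subunit that is expressed more steadily than Jun, followed the same order at its ends, with 396.1 CPM in B-cell progenitor-like and 15.8 CPM in neutrophil-like cells. Ier2, a small nuclear protein of the early response, went the other way, with its highest level in neutrophil-like cells (134.5 CPM) and its lowest in megakaryocyte-like cells (50.03 CPM). Zfp36 encodes tristetraprolin, which destabilises AU-rich mRNAs, and was high in B-cell progenitor-like (45.0 CPM) and neutrophil-like cells (41.8 CPM) and low in erythroid progenitor-like cells (1.67 CPM). Egr1 stood at 23.6 CPM in basophil and mast-like, 13.7 CPM in megakaryocyte-like and 0.209 CPM in neutrophil-like cells. Atf3, a stress-induced partner of Jun, was near absent, with fewer than 20 counts in 26 of 27 sums of a class in a library and no count in 13 of them. Its highest level outside a dendritic-like cluster of the Mll4-labelled library, described further on, was 1.03 CPM, so it enters no ratio except the one in B cells.

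B-cell progenitor-like cells were the class in which all 4 libraries could be set side by side, and the members did not move as a group there. Egr1 and Dusp1 were higher in the Mll3/4-labelled library than in control, while Jun, Fos and Zfp36 were lower, though by less than 2-fold against 1 of the 2 control clusters. Egr1 stood at 6.78 CPM in control (4.25 to 10.3, 22 counts), 9.03 in the Mll3-labelled, 27.7 in the Mll4-labelled (10 counts only) and 63.7 CPM in the Mll3/4-labelled library (61.9 to 65.5, 4835 counts). The last level was 9.39-fold the control level, a log2 ratio of 3.06 with 1 CPM added to both levels, the scale of every log2 ratio below. Dusp1 encodes a phosphatase that switches off MAP kinases. It stood at 11.7, 8.12, 24.95 and 33.2 CPM in control, Mll3-, Mll4- and Mll3/4-labelled cells, which put the last 2.83-fold above control (log2 ratio 1.43). The Mll4-labelled value rests on 9 counts, 1.03 above control in log2 terms, and lay below control (-0.30) with the second hashtag alone.

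The Fos and Jun families were lower in Mll3/4-labelled B-cell progenitor-like cells than in the whole control class. Jun stood at 282.1 CPM in control (264.1 to 301.0), 173.3 in the Mll3-labelled, 510.1 in the Mll4-labelled and 111.8 CPM in the Mll3/4-labelled library (109.4 to 114.2), which is 2.52-fold below control (log2 ratio -1.33). The 4 intervals did not overlap, and the Mll4-labelled library lay above control where the Mll3/4-labelled library lay below it. Fos stood at 15.7, 10.2, 24.95 and 5.59 CPM in the same order and was 2.81-fold lower in the Mll3/4-labelled library than in control (log2 ratio -1.34). Jund stood at 396.1, 396.5, 318.8 and 245.3 CPM, Junb at 37.0, 39.7, 47.1 and 20.9 CPM, and Fosb, a Fos relative, at 28.4, 14.4, 19.4 and 16.1 CPM. These 3 were lower in Mll3/4-labelled cells than in control by less than 2-fold, with log2 ratios of -0.69, -0.79 and -0.78. Zfp36 stood at 45.0 CPM in control, 44.5 in Mll3-labelled, 22.2 in Mll4-labelled and 16.7 CPM in Mll3/4-labelled cells, 2.7-fold below control (log2 ratio -1.38). The 2 feedback members therefore took opposite directions. Ier2 differed least, at 58.0, 53.6, 80.4 and 41.9 CPM. Atf3 had no count in control, Mll3- or Mll4-labelled B-cell progenitor-like cells, where 3 counts would be 0.925, 0.903 and 8.32 CPM, and 0.422 CPM (32 counts) in Mll3/4-labelled cells, below each of those limits.

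A gene was called when it differed by 2-fold or more on the log2(CPM + 1) scale and had at least 20 counts in either library. By that rule 2 of the 10 members were higher in Mll3/4-labelled B-cell progenitor-like cells, where 9.3% of 13467 genes were. Another 3 were lower, where 7.51% of genes were. The median log2 ratio of the members was -0.74, and that of all genes was 0.02. Over all kept cells the member median was instead 0.49, since the Mll3/4-labelled library was almost all B-cell progenitor-like, and levels over all cells mix the cell classes.

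The 2 hashtags of each library allowed the B-cell values to be seen in 2 sets of cells, although whether they mark animals is not given. Egr1 was at 74.1 and 51.1 CPM in cells with the first and second hashtag of the Mll3/4-labelled library, against 7.11 and 6.61 CPM in control. Zfp36 was at 15.8 and 17.5 CPM against 48.4 and 42.4 CPM. For both genes the sets of the Mll3/4-labelled library resembled each other far more than either resembled control. Dusp1 differed between the sets, at 50.1 and 14.3 CPM against 9.25 and 13.8 CPM in control, so the second set was level with control. Jun stood at 72.0 and 155.4 CPM against 304.4 and 265.0, Fos at 3.95 and 7.50 CPM against 22.8 and 10.5, and Fosb at 6.95 and 26.3 CPM against 27.7 and 29.2. All 3 were lowest in the first hashtag of the Mll3/4-labelled library, and in the second the Fos interval (6.62 to 8.47 CPM) overlapped that of the second control hashtag (6.30 to 16.4 CPM). With the second hashtag alone in both libraries, Fos, Jun and Dusp1 no longer reached 2-fold, at log2 ratios of -0.43, -0.77 and 0.05, while with the first alone they were at -2.26, -2.06 and 2.32. Between its hashtags 2 of 10 members, Fosb and Jun, were called higher in the second (0.261% of genes were) and 1, Dusp1, lower (1.03% of genes were). Kmt2c was alike in the 2 sets, at 34.6 and 34.3 CPM. Both Mll3/4-labelled sets lay above both control sets for Egr1 and Dusp1, as did 35.7% of genes, although the second Dusp1 set (14.3 CPM) was within the interval of the second control set (8.91 to 20.3 CPM). They lay below both for 7 members, as did 32.8% of genes. Atf3, with no count in control and levels under what 3 counts would give there, cannot be placed.

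**Figure D1:**
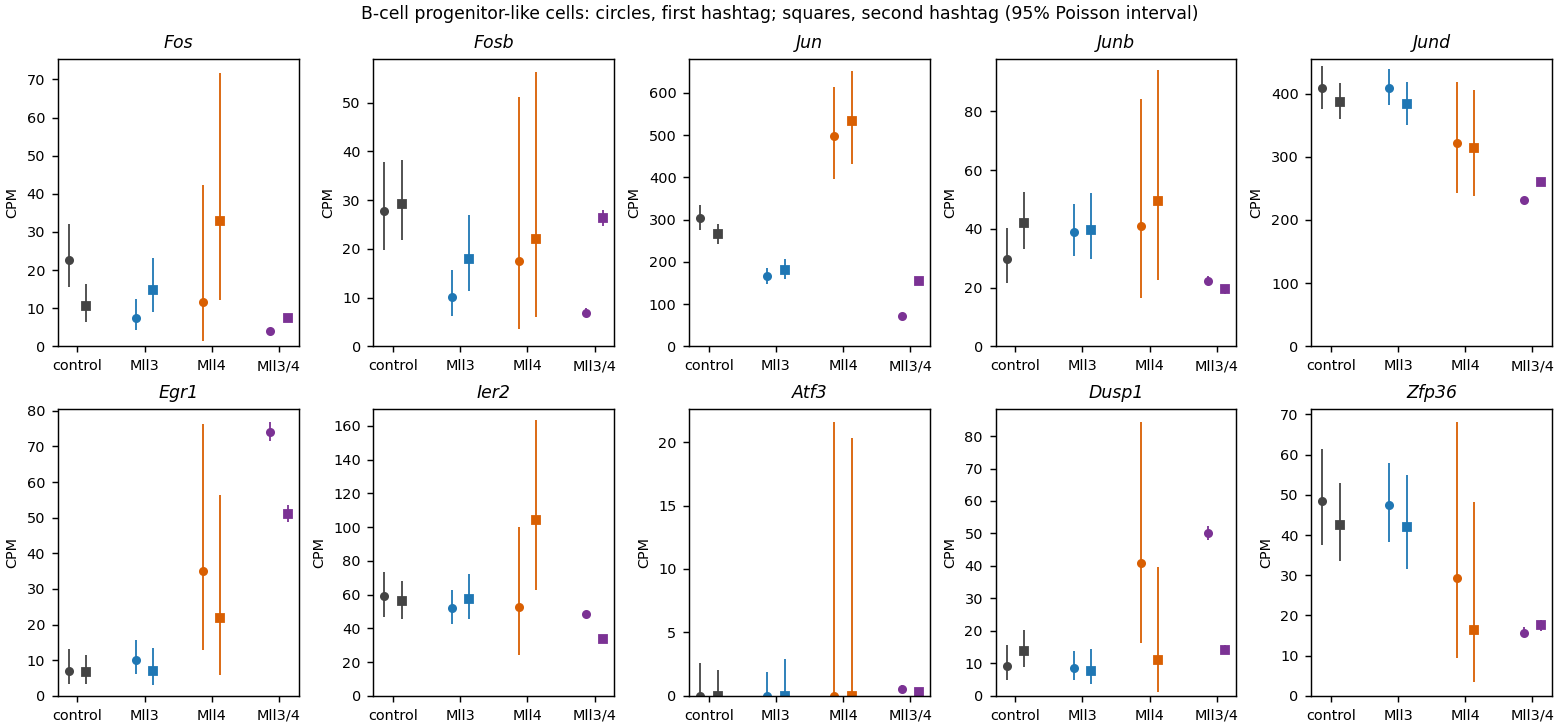
CPM of members (vertical axes, starting at 0) in B-cell progenitor-like cells of the 4 libraries (horizontal axes), with circles for the first and squares for the second hashtag and bars for the 95% Poisson interval. Egr1 is high in both hashtags of the Mll3/4-labelled library (74.1 and 51.1 CPM), while Dusp1 is high in the first only (50.1 against 14.3 CPM).

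Within the Mll3/4-labelled library the members also varied between clusters. Dusp1 was highest in cluster 21 (681 cells), at 101.7 CPM, and stood at 29.7, 27.6, 22.5 and 11.2 CPM in clusters 22 to 25. Egr1 stood at 78.4, 64.9, 66.4, 56.6 and 15.5 CPM in clusters 21 to 25, so cluster 25 (242 cells) was nearest to the control level. Jun was lowest in cluster 24, at 41.6 CPM, and between 107.7 and 132.8 CPM in the others. The 2 control clusters differed as well. Control cluster 0 had 578.0 CPM of Jund and control cluster 17 had 244.0 CPM, the second being close to the 245.3 CPM of the Mll3/4-labelled cells. Jun was at 398.0 and 203.9 CPM, Fos at 22.2 and 8.86 CPM and Zfp36 at 65.0 and 29.7 CPM in the same clusters. Egr1 was at 7.14 and 5.74 CPM in the pair. The reference cluster decided the calls of lower members. Against control cluster 0 alone 6 members were called lower (Fos, Fosb, Jun, Junb, Jund and Zfp36; 11.2% of genes were), and against control cluster 17 alone none was (7.04% of genes were). Against cluster 17 the log2 ratios were -0.86 for Jun, -0.58 for Fos, -0.80 for Zfp36 and 0.01 for Jund, so the first 3 fell short of 2-fold and Jund was level. Egr1 and Dusp1 were called higher against either cluster, with log2 ratios of 2.99 and 3.26 for Egr1 and 1.81 and 1.18 for Dusp1, where 11.8% and 14.2% of genes were called higher. The member median was -1.21 against cluster 0 and -0.30 against cluster 17. The summed level of the 11 B-cell markers was 14810 CPM in control and 12580 CPM in Mll3/4-labelled B-cell progenitor-like cells. Neutrophil markers summed to 2485 CPM in control, 6471 in Mll4-labelled and 81.7 CPM in Mll3/4-labelled B-cell progenitor-like cells, and granulocyte progenitor markers to 814.1 CPM in control and 47.3 CPM in Mll3/4-labelled ones. The part of these markers and of the cluster make-up in the member values was not tested.

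The share of cells with a member UMI depends on depth, so B-cell progenitor-like cells were also thinned to 2000 UMIs each, leaving out 31 control, 50 Mll3-labelled, 73 Mll4-labelled and 83 Mll3/4-labelled cells with fewer. That left 459, 464, 74 and 6748 cells. Egr1 was then seen in 0.654% of control, 1.72% of Mll3-labelled, 1.35% of Mll4-labelled and 9.53% of Mll3/4-labelled cells. Before thinning the shares of the same cells were 4.14%, 4.96%, 1.35% and 23.3%, at median depths of 4528, 4611.5, 3157.5 and 10009.5 UMIs. Control neutrophil-like cells, in which Egr1 is nearly absent, gave 0.114% after thinning and 0.285% before, at a median depth of 13596.5 UMIs. Jun was seen in 49.2% of thinned control cells and 17% of thinned Mll3/4-labelled cells. Dusp1 went from 2.18% to 6.74%. After thinning, 18.7% of control and 39.3% of Mll3/4-labelled cells held no UMI of any member. The Mll3/4-labelled cells thus held fewer member UMIs at equal depth than the whole control class, with a mean of 1.22 per cell against 2.35. This gap depends on the control cluster. Without thinning, the members summed to 1235 CPM in control cluster 0, 604.8 CPM in control cluster 17 and 555.6 CPM in the Mll3/4-labelled cells.

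Other genes of the pathway were taken from lists of AP-1 relatives, further immediate early genes, feedback inhibitors, upstream factors and heat shock genes. Of 13 feedback inhibitors, all measured in B-cell progenitor-like cells, 6 were called higher and 2 lower in the Mll3/4-labelled library, where 9.3% and 7.51% of genes were. Their median log2 ratio to control was 0.999, or 0.19 against control cluster 0 alone and 1.17 against cluster 17 alone, with 5 and 7 called higher and 2 lower in each case. Spry1, a Sprouty inhibitor of receptor tyrosine kinase signalling, went from 1.54 CPM in control to 27.1 CPM (log2 ratio 3.47), and its relative Spry2 from 5.24 to 30.7 CPM. Spred1 and Spred2, Sprouty-related inhibitors of Ras signalling, went from 24.7 to 97.2 CPM and from 30.5 to 91.8 CPM. Dusp6, a phosphatase of ERK, went from 74.3 to 158.6 CPM, and Dusp4, a nuclear MAP kinase phosphatase, from 1.23 to 5.36 CPM. Tnfaip3, the inhibitor of NF-κB signalling also known as A20, went the other way, from 22.5 to 3.69 CPM, as did Dusp2, from 113.4 to 51.0 CPM. Sprouty, Spred and these Dusp proteins, Dusp2 included, are known as inhibitors of the Ras and ERK branch, and Tnfaip3 acts elsewhere. Inhibitors of that branch thus went both ways. Against control cluster 17 alone the 2 called lower were Tnfaip3 and Dusp5 (8.34 to 3.23 CPM), with Dusp2 at a log2 ratio of -0.87. By hashtag of the Mll3/4-labelled library, Spry1 was at 39.5 and 13.3 CPM, Spred1 at 124.6 and 66.3, Dusp6 at 176.3 and 137.3 and Spry2 at 26.7 and 35.2 CPM, so Spry1 and Spred1 were higher in the same set as Dusp1.

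**Figure D2:**
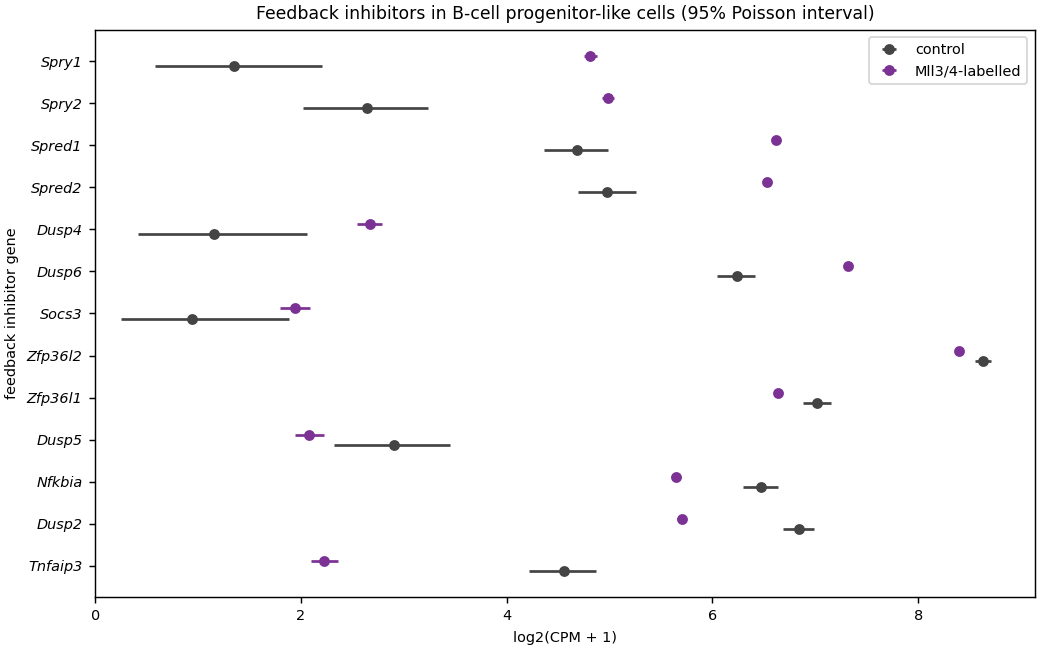
Level of each feedback inhibitor as log2(CPM + 1) (horizontal axis) in B-cell progenitor-like cells of the libraries named in the key, with bars for the 95% Poisson interval and 1 gene per line. Spry1, Spry2, Spred1, Spred2, Dusp4 and Dusp6 lie to the right of control in the Mll3/4-labelled library, and Tnfaip3 and Dusp2 to the left.

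The remaining lists did not move one way in those cells. Of 14 further immediate early genes measured, 2 were called higher, Btg1, an antiproliferative gene (206.2 to 807.4 CPM), and Nr4a2, an orphan nuclear receptor (0.925 to 5.73 CPM). Another 4 were called lower, Gadd45b (27.7 to 2.45 CPM), Ier5 (40.7 to 10.5 CPM), Nr4a1 (2.77 to 0.329 CPM) and Klf4 (3.70 to 1.16 CPM). Of 11 AP-1 relatives measured, Atf5 was called higher (7.40 to 28.4 CPM) and Mafk lower (12.3 to 3.91 CPM), and the list's median log2 ratio was 0.26. None of the 10 upstream factors, the kinases and bound transcription factors of the pathway, was called in either direction, with a median of -0.12. Of 10 heat shock genes measured, Hspa1a (6.47 to 2.10 CPM) and Hspa1b were called lower, and the median was 0.10.

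In the Mll4-labelled library the members were higher than in control in most classes, with Jun foremost. Jun lay above control in 8 of 8 classes. It went from 31.3 to 90.0 CPM in neutrophil-like, 51.2 to 161.8 CPM in granulocyte progenitor-like, 60.8 to 213.1 CPM in monocyte-progenitor-like and 267.3 to 690.5 CPM in basophil and mast-like cells. The log2 ratios of Jun ran from 0.39 in HSC/MPP-like to 1.79 in monocyte-progenitor-like cells. Egr1 lay above control in each of the 6 classes with enough counts, going from 6.49 to 21.7 CPM in HSC/MPP-like, 9.79 to 22.4 CPM in erythroid progenitor-like and 23.6 to 85.5 CPM in basophil and mast-like cells. Fos was also above control in 8 of 8 classes, from a log2 ratio of 0.38 up to 1.63 in granulocyte progenitor-like cells (15.4 to 49.8 CPM). The B-cell value of Fos turned to -0.91 with the first hashtag alone and to -0.51 within cluster 0, on few counts. Fosb went from 2.25 to 13.4 CPM in granulocyte progenitor-like and 3.28 to 14.5 CPM in monocyte-progenitor-like cells. Junb had log2 ratios from 0.01 to 1.06 over the 8 classes, with an interval above 0 in 4. The largest was in basophil and mast-like cells (72.3 to 151.6 CPM). It was close to control in granulocyte progenitor-like (0.01), monocyte-progenitor-like (0.03) and HSC/MPP-like cells (0.06). Its sign there changed in 8 of 17, 5 of 16 and 8 of 17 alternatives.

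The other members had no common direction in the Mll4-labelled library. Jund ran from a log2 ratio of -0.59 in HSC/MPP-like cells (116.7 to 77.1 CPM) to 0.69 in monocyte-progenitor-like cells (29.5 to 48.3 CPM). Ier2 was below control in granulocyte progenitor-like cells (84.6 to 49.8 CPM) and above it in B-cell progenitor-like cells. Dusp1 went from 15.1 to 7.97 CPM in HSC/MPP-like and from 19.7 to 33.1 CPM in basophil and mast-like cells. Zfp36 had log2 ratios from -0.99, among B-cell progenitor-like cells, to 0.47 in granulocyte progenitor-like cells (9.36 to 13.4 CPM). In HSC/MPP-like cells Fos, Jun and Egr1 were above control, Junb was close to it (0.06), and Fosb, Jund, Ier2, Dusp1 and Zfp36 were below it. The member median there was -0.45, or 0.20 with the second hashtag alone. In the other 7 classes the median lay between 0.33 and 0.69, with all-gene medians of 0.06 to 0.23 over the 8 classes. The B-cell median of 0.47 was not stable in direction. It was -0.35 and -0.30 with the first and second hashtag alone, -0.31 within B-cell cluster 0 and 0.08 within cluster 17, although Jun lay above control within both clusters (0.87 and 0.81).

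By the 2-fold rule 17 of 69 member comparisons were higher in the Mll4-labelled library, and the shares of all genes called higher there were large in several classes. In HSC/MPP-like cells 1 of 9 members was called (Egr1), where 3.84% of genes were. In granulocyte progenitor-like cells 3 were called (Fos, Fosb and Jun; 7.88% of genes), and in neutrophil-like cells 1 (Jun; 2.91% of genes). Monocyte-progenitor-like cells gave 3 (Fosb, Jun and Egr1; 7.35% of genes) and erythroid progenitor-like cells 3 (Fos, Jun and Egr1; 4.06% of genes). Megakaryocyte-like cells gave 1 (Jun; 4.42% of genes), basophil and mast-like cells 3 (Jun, Junb and Egr1; 10.6% of genes) and B-cell progenitor-like cells 2 (Egr1 and Dusp1; 8.09% of genes). The B-cell calls of Egr1 and Dusp1 rest on 10 and 9 counts in the Mll4-labelled library. Jun and Egr1 recurred most, and Jund, Ier2 and Zfp36 were in none of these calls. Several calls were close to the limit. Jun in megakaryocyte-like cells kept its call in 9 of 17 alternatives (0.81 with trimmed-mean scaling) and Junb in basophil and mast-like cells in 10 of 17 (0.40 with the first hashtag alone). Egr1 in erythroid progenitor-like cells was at 0.47 with the second hashtag alone and Jun in neutrophil-like cells at 0.69 with the first. With a pseudocount of 5 CPM, Fos in erythroid progenitor-like cells was at 0.76 and Egr1 in monocyte-progenitor-like cells at 0.82. When each library was split by hashtag, Jun and Egr1 lay above both control sets in both Mll4-labelled sets in each of the 8 classes. Of all genes, 5.76% showed that arrangement. For Egr1 it rests on few counts in granulocyte progenitor-like cells, 6 Mll4-labelled and 12 control over both sets. In neutrophil-like cells it rests on 14 and 4 counts. Neither class met the count minimum of the 2-fold rule for Egr1, so its position there is uncertain.

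**Figure D3:**
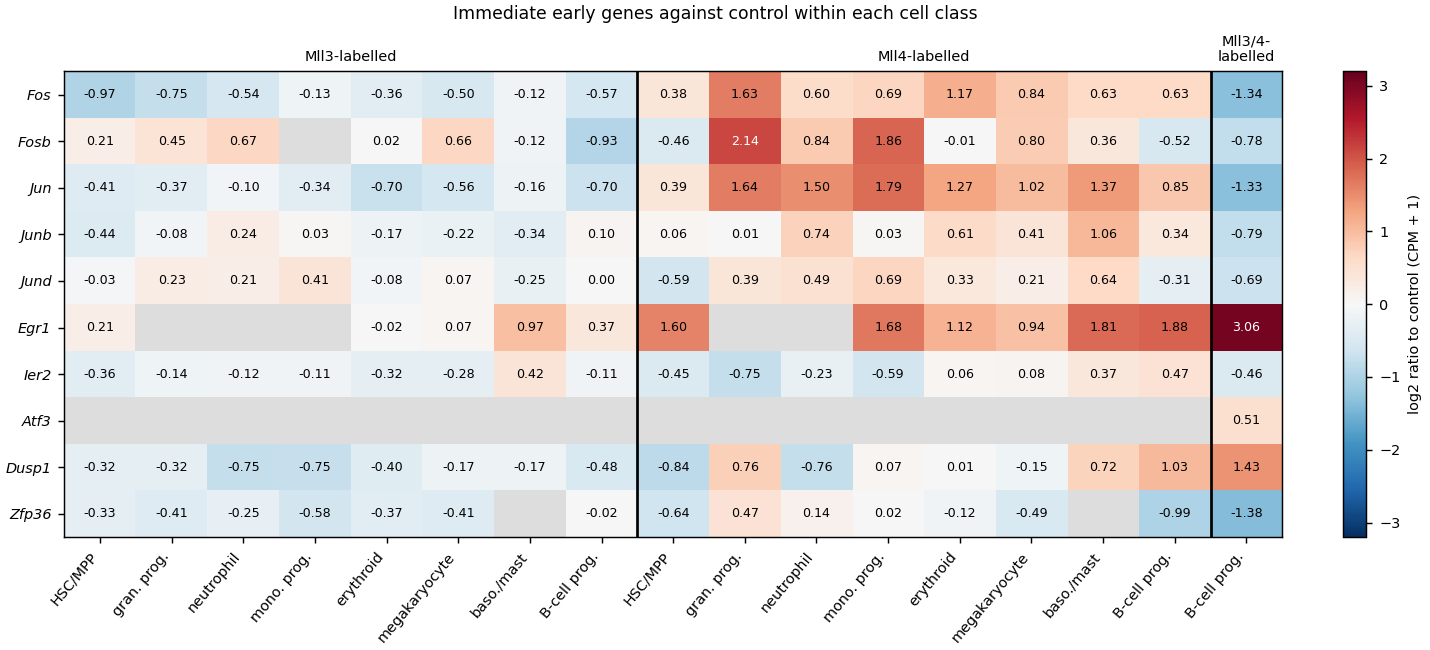
Log2 ratio to control, on CPM + 1 (colour scale), of each member in each cell class for the Mll3-, Mll4- and Mll3/4-labelled libraries. With all cells of a class, Jun and Fos are above control in every class of the Mll4-labelled library and below it in every class of the Mll3-labelled library.

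The make-up of the classes also differed between these libraries. Of the granulocyte progenitor-like cells, 187 of 230 Mll4-labelled ones lay in cluster 4, led by F13a1, against 204 of 631 in control, and monocyte markers summed to 1352 CPM against 373.9 CPM while the class's own markers summed to 24610 against 32410 CPM. Within cluster 4 alone Fos, Fosb and Jun stayed past 2-fold, at log2 ratios of 1.16, 1.90 and 1.55, and the member median was 0.61. Neutrophil markers were higher in Mll4-labelled cells of other classes, at 3248 against 1198 CPM in HSC/MPP-like, 3358 against 638.1 CPM in erythroid progenitor-like, 2849 against 1003 CPM in megakaryocyte-like and 7788 against 956.6 CPM in monocyte-progenitor-like cells. Their part in the member values was not tested.

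Neutrophil-like cells were also compared within a shared cluster. Cluster 11 held 1914 Mll4-labelled cells and 36 control cells, and Y-linked genes were among its leading genes, so cluster 15, led by Mmp8 and Retnlg and present in 3 libraries, was compared by itself. There Jun was at 35.2 CPM in control, 29.4 in Mll3-labelled and 120.6 CPM in Mll4-labelled cells. Fos was at 32.0, 9.44 and 22.2 CPM and Dusp1 at 24.8, 12.8 and 10.2 CPM. Jun was thus higher in the Mll4-labelled library within that cluster too, whereas Fos and Dusp1 were lower than in control. Median depth also differed, the Mll4-labelled library having the fewest UMIs per cell, and with cells thinned to 2000 UMIs the neutrophil-like member median was 0.16 in place of 0.55.

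Of 12 further immediate early genes measured in Mll4-labelled granulocyte progenitor-like cells 5 were called higher, where 7.88% of genes were, and 2 lower, where 3.32% of genes were. Klf2, a transcription factor of quiescence, went from 0.508 to 13.9 CPM there, its relatives Klf4 from 4.71 to 34.9 CPM and Klf6 from 7.40 to 33.4 CPM, and Btg1 from 33.5 to 97.1 CPM. Gadd45b, a stress sensor, went the other way there, from 57.0 to 21.1 CPM, as did Ier3, from 11.8 to 4.11 CPM. In HSC/MPP-like and neutrophil-like cells none of the 12 was called higher. In basophil and mast-like cells 5 of 10 feedback inhibitors measured were called higher, where 10.6% of genes were, among them Dusp4 (0.786 to 30.3 CPM), Tnfaip3 (11.01 to 64.8 CPM) and Spred1 (64.5 to 219.1 CPM). No feedback inhibitor was called higher among 13 measured in HSC/MPP-like cells or among 12 in erythroid progenitor-like cells. Heat shock genes stood beside these values. Hspa1a, an inducible chaperone, went from 0.998 to 25.2 CPM in HSC/MPP-like and from 5.37 to 97.6 CPM in granulocyte progenitor-like cells, and Hspa8, the constitutive form, from 1204 to 3126 CPM and from 954.8 to 3050 CPM. Their part in the member values was not tested.

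A cluster of 107 Mll4-labelled cells led by Cd74 and H2-Aa, and therefore called dendritic-like, had no counterpart of 50 cells elsewhere. Its members were at 146.7 CPM for Fos (108.5 to 194.0), 425.2 for Jun, 236.5 for Junb, 173.7 for Zfp36, 59.9 for Dusp1 and 29.9 CPM for Atf3 (14.4 to 55.1, 10 counts). Fos, Junb, Zfp36 and Atf3 were above their levels in every named class of the control library. Of the 107 cells, 89 carried the second hashtag only.

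In the Mll3-labelled library no member reached 2-fold in any whole class, in 67 comparisons. The shares of all genes called in either direction were 0.906% in HSC/MPP-like, 0.902% in granulocyte progenitor-like, 0.605% in neutrophil-like and 1.08% in monocyte-progenitor-like cells. They were 0.723% in erythroid progenitor-like, 1.49% in megakaryocyte-like, 3.26% in basophil and mast-like and 2.49% in B-cell progenitor-like cells, so few genes of any kind were called. Within single clusters some members did reach 2-fold. Fos (-1.10) and Fosb (-2.11) were called lower in B-cell cluster 0 (3.66% of genes were), Fosb (-1.0) in B-cell cluster 17 (1.33% of genes) and Fos (-1.66) in neutrophil cluster 15 (1.36% of genes). In the B-cell class 145 of 514 Mll3-labelled cells lay in cluster 19, led by Igkc and Ms4a1, against 19 of 490 control cells, and without that cluster the log2 ratio of Fosb was -1.50 in place of -0.93. Over whole classes, smaller differences had a common side. Fos was below control in 8 of 8 classes, with an interval below 0 in 5, from a log2 ratio of -0.97 in HSC/MPP-like cells (18.9 to 9.15 CPM) to -0.12 in basophil and mast-like cells. Jun was below in 8 of 8 (interval below 0 in 6), from -0.70 in erythroid progenitor-like cells (49.8 to 30.3 CPM) to -0.10 in neutrophil-like cells. Dusp1 was below in 8 of 8 (interval below 0 in 3), Zfp36 in 7 of 7 (in 6) and Ier2 in 7 of 8 (in 5). Fosb and Egr1 lay on the other side in most classes, above control in 5 of 7 and 4 of 5. Their intervals lay above 0 in only 2 and 1 of these. Fosb went from 16.1 to 25.9 CPM in megakaryocyte-like cells and from 28.4 to 14.4 CPM in B-cell progenitor-like cells. The member medians ran from -0.33 in HSC/MPP-like to -0.11 in neutrophil-like and B-cell progenitor-like cells, beside all-gene medians of -0.08 to -0.02. The B-cell median was -0.46 within cluster 0 and -0.42 within cluster 17. Comparisons with control share the same control cells, so a high control level enters all of them.

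The lower Fos and Jun values of the Mll3-labelled library came mostly from cells with its first hashtag. This was not so for every member, nor for Jun in B-cell progenitor-like cells. In HSC/MPP-like cells Fos was at 4.92 CPM with the first and 15.6 CPM with the second hashtag, where control had 18.97 and 18.90 CPM. Jun was at 64.1 and 133.8 CPM there, against 125.8 and 119.8 CPM in control. The second set was thus close to control and the first below it. Neutrophil-like cells gave 2.14 and 12.2 CPM for Fos and 11.3 and 40.1 CPM for Jun, against 13.4 and 11.47 CPM and 28.1 and 34.0 CPM in control. Megakaryocyte-like cells gave 1.73 and 10.96 CPM for Fos, 14.4 and 48.0 CPM for Fosb and 59.6 and 127.5 CPM for Jun, against 7.67 and 7.47, 15.1 and 17.4, and 120.3 and 124.9 CPM in control. Here Fosb and Fos exceeded control in the second set. Erythroid progenitor-like cells gave 1.21 and 5.43 CPM for Fos and 20.4 and 43.7 CPM for Jun, against 3.88 and 4.09, and 51.2 and 48.9 CPM in control. B-cell progenitor-like cells differed least in Jun, at 165.4 and 181.6 CPM, with Fos at 7.56 and 14.8 CPM. Control had 304.4 and 265.0 CPM of Jun and 22.8 and 10.5 CPM of Fos there. Jun thus lay below control with either hashtag in erythroid and B-cell progenitor-like cells. Ier2 did not divide by hashtag as Fos did. In HSC/MPP-like cells it stood at 71.2 and 71.7 CPM by hashtag, against 91.4 and 92.4 CPM in control. Among B-cell progenitor-like cells its sets overlapped those of control, at 51.9 and 57.7 against 59.0 and 56.2 CPM. In erythroid progenitor-like cells Junb (35.7 and 28.1 CPM) and Ier2 (45.4 and 38.9 CPM) were lower with the second hashtag.

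**Figure D4:**
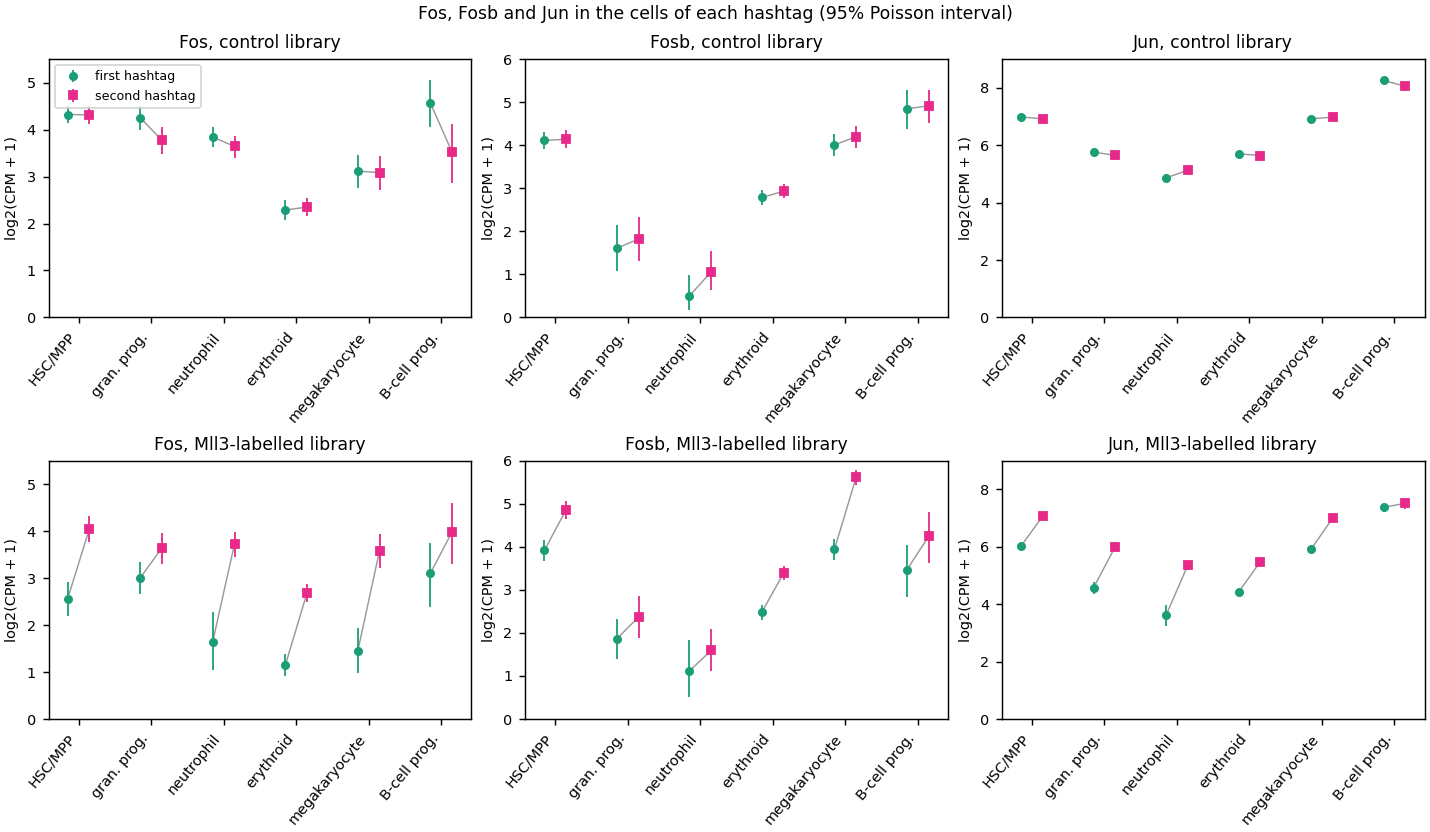
Level of Fos, Fosb and Jun as log2(CPM + 1) (vertical axes) in 6 cell classes (horizontal axes) for cells of the first and second hashtag, in the control and Mll3-labelled libraries, with bars for the 95% Poisson interval. In the Mll3-labelled library the second hashtag lies above the first for all 3 genes in each class, while in control Fos and Jun of the 2 hashtags lie close together in most classes.

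Between the hashtags of the Mll3-labelled library, members called higher in the second numbered 2 of 9 in HSC/MPP-like (0.294% of genes), 1 of 8 in granulocyte progenitor-like (0.275% of genes) and 2 of 7 in neutrophil-like cells (0.878% of genes). They numbered 2 of 9 in erythroid progenitor-like (0.587% of genes) and 3 of 9 in megakaryocyte-like cells (0.469% of genes), and 0 of 7 in B-cell progenitor-like cells (0.427% of genes). Fos, Fosb and Jun were higher in the second hashtag in each of 6 classes, an arrangement that 1.59% of genes showed. In control Fosb alone did so, as did 1.42% of genes. Kmt2c moved beside these values. It was at 31.1 and 43.2 CPM by hashtag in HSC/MPP-like, 32.9 and 60.5 CPM in neutrophil-like and 24.2 and 45.6 CPM in megakaryocyte-like cells of the Mll3-labelled library, and at 20.8 and 35.2 CPM over all its cells, against 49.3 and 46.5 CPM in control. In B-cell progenitor-like cells Kmt2c was nearly level, at 29.8 and 31.2 CPM. Jun was nearly level there too, but Fos (7.56 and 14.8 CPM) and Fosb (10.1 and 17.9 CPM) were not. Hspa1a was higher in the second hashtag of every library over all cells, at 1.28 and 6.05 CPM in control and 8.11 and 18.6 CPM in the Mll3-labelled library. The part of Kmt2c level, of heat shock genes and of what the hashtags mark in the member values was not tested.

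Outside the heat shock list the wider lists gave 5 calls over whole classes in the Mll3-labelled library. Klf2 was higher in B-cell progenitor-like cells (44.4 to 103.8 CPM), the class with the Igkc and Ms4a1 cluster. Spry1 was lower in megakaryocyte-like cells (7.08 to 2.05 CPM), Ier5 in erythroid progenitor-like cells (14.2 to 5.40 CPM), Mafk in monocyte-progenitor-like cells (11.7 to 4.91 CPM) and Myc in basophil and mast-like cells (115.6 to 48.9 CPM). Of the 10 heat shock genes measured in HSC/MPP-like cells 2 were called higher, Hspa1a (0.998 to 7.57 CPM) and Hspa1b, and both were also called higher in granulocyte progenitor-like, monocyte-progenitor-like, erythroid progenitor-like and megakaryocyte-like cells, and Hspa1b in neutrophil-like cells. Of 13 feedback inhibitors measured in HSC/MPP-like cells none was called in either direction, and their median was -0.41.

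Across the 27 sums of a class in a library, correlations between pairs of members on log2(CPM + 1) ran from -0.35 for Jund and Ier2 to 0.84 for Jund with Egr1, Fosb with Jun and Fosb with Egr1. These sums share libraries and depth, so the values are descriptions. The genes whose level followed the mean of the members most closely over the same 27 sums, among 6000 with a mean of at least 20 CPM, were Gbp2 (r = 0.92), B2m (r = 0.91) and Tspyl1 (r = 0.89), and then Ddx17, Crebrf, Vamp2, Kat6a, Lnpep, Gatad2b and Inpp5k, down to r = 0.87. Gbp2 is an interferon-induced GTPase and B2m the light chain of class I histocompatibility molecules. Within single cells of one class and library, thinned to 2000 UMIs, 605 of 614 member pairs had a correlation within 0.2 of 0, and the highest were in neutrophil-like cells, up to 0.35 for Junb with Dusp1. Counts per cell are sparse at that depth, so low correlations there carry no information.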

How the data were processed

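Gene and antibody UMI counts were the deposited values, unnormalized count matrices made with Cell Ranger 6.1.2 and mm10, per the submitters' processing notes. Whether the counting used strand is not given in the sources used here, so reads of Jun and Zfp36 and of the antisense genes annotated across them (Junos and Gm44710) cannot be told apart. Cells with at least 500 genes, 1000 UMIs and at most 10% mitochondrial UMIs were kept. The highest Scrublet scores were removed as doublets at 0.8% per 1000 barcodes, between 5.29% and 8.01% of the cells of a library. Cells of all libraries were clustered together with scanpy 1.11.5 (2000 variable genes without the listed genes, 30 components, 15 neighbours, Leiden resolution 1) and clusters were named from marker lists, in Python 3.11.15. UMIs were summed per class and library of at least 50 cells and given as CPM with exact Poisson intervals, and log2 ratios used 1 CPM as pseudocount. Folds and their intervals were computed without it. With 1 library per group no test, p-value or replicate spread exists. The summing and calling were checked on simulated data. Members and lists were chosen with earlier results of these data known. All members are named, and of each wider list at most the 6 genes furthest past 2-fold in a comparison. The genes most like the members were taken as the 10 with the highest correlation. Cells with a hashtag were split by a mixture model with 2 components on each hashtag's counts. Alternatives covered scaling (edgeR 4.0.16), pseudocount, minimum count, thinning, filters, clustering and hashtags. Some were chosen after seeing the data, namely leaving out cluster 19, taking only cluster 0, 4, 15 or 17 (in both libraries, or 0 or 17 in control alone), and leaving out cells with both hashtags. Of 32285 gene identifiers, 32158 were found in GENCODE M21, and promoters came from RefSeq.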

Additional observations from a re-analysis of the deposited data

Results flagged for a closer look

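Both results below came up because a member lay on opposite sides of control in different cell classes of one library. In those classes its counting interval lay on the matching side of 0, and both hashtag sets lay beyond both control sets. The difference between classes was not tested, since each class of a library is 1 sample. Fosb in the Mll3-labelled library had a log2 ratio to control of 0.67 in neutrophil-like cells (0.709 to 1.72 CPM) and of -0.93 in B-cell progenitor-like cells (28.4 to 14.4 CPM). The neutrophil-like value rests on few counts, 17 control and 23 Mll3-labelled over both hashtag sets. With a pseudocount of 5 CPM it was 0.23. Jund in the Mll4-labelled library had a log2 ratio of 0.69 in monocyte-progenitor-like cells (29.5 to 48.3 CPM) and of -0.59 in HSC/MPP-like cells (116.7 to 77.1 CPM). Its interval lay above control in 6 classes and below it in 2. With the hashtag sets also required, 5 and 2 classes remained.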

How the results depend on the processing

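No paired analysis was possible because each group had 1 library. Of 333 recomputed member medians 297 stayed within the counting error of the member or members at the median. Some of these changed sign. In the Mll3-labelled library the granulocyte progenitor-like median went from -0.23 to 0.07 with the second hashtag alone. The monocyte-progenitor-like one went from -0.13 to 0.26 thinned. Among 2423 recomputed member ratios 2182 stayed within their own counting error. Of 22 called member ratios 21 kept their direction throughout, and 9 stayed past 2-fold under every alternative run, among them Egr1 in Mll3/4-labelled B-cell progenitor-like cells but not Fos, Jun, Dusp1 or Zfp36 there. Dusp1 in Mll4-labelled B-cell progenitor-like cells (1.03, 9 counts) turned to -0.30 in the second hashtag alone. The causes below were not tested. Medians over all cells moved for the Mll3-labelled library from -0.34 to -0.30 with trimmed-mean scaling, -0.25 with no count minimum, -0.25 with no doublet removal, -0.43 with the first and -0.08 with the second hashtag alone. With the second hashtag alone those of the Mll4- and Mll3/4-labelled libraries moved from 0.27 to 0.59 and from 0.49 to 1.01. Medians of the Mll3-labelled library with the second hashtag alone were -0.05 in HSC/MPP-like, 0.09 in neutrophil-like, -0.16 in erythroid progenitor-like and 0.32 in megakaryocyte-like cells. Its neutrophil-like median was -0.51 with the first hashtag, -0.31 without the top 5% of cells and -0.25 in cluster 15. Its erythroid median was -0.15 with a pseudocount of 5 CPM, -0.24 thinned, -0.21 at resolution 0.5 and -0.19 with the listed genes in the clustering. For the Mll4-labelled library the HSC/MPP-like median was -0.67 with trimmed-mean scaling and 0.20 with the second hashtag. The neutrophil-like median was 0.16 thinned, 0.11 with the first hashtag and 0.14 in cluster 15, and the monocyte-progenitor-like one 0.29 with the first hashtag. The erythroid one was 0.05 with trimmed-mean scaling and 1.0 thinned, and the B-cell one -0.35 with the first and -0.30 with the second hashtag and -0.31 within cluster 0. The B-cell median of the Mll3-labelled library was -0.46 within cluster 0 and -0.42 within cluster 17. The B-cell median of the Mll3/4-labelled library was -1.05 with equal weight per cell, -0.98 thinned, -0.52 in cells of at least 3000 UMIs, -1.21 against control cluster 0 and -0.30 against control cluster 17. The Mll4-labelled library is the shallowest, and its B-cell class, with 147 cells, gives the least precise values.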
